A study of Mus musculus with 2 samples.

Results

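Nuclear genes that encode the mitochondrial respiratory chain and the ATP synthase were examined in LPS-treated mouse macrophages with and without 3 related microRNA clusters. The genes were chosen by symbol: Nduf followed by a, b, c, s or v and a number, the Sdh genes a to d, and every symbol beginning with Uqcr, Cox4 to Cox8 or Atp5. The rule found 81 of 16218 genes in the deposited table, 35 of complex I, 4 of complex II, 8 of complex III, 17 of complex IV and 17 of complex V. Ndufa4 and its paralogue Ndufa4l2 were placed with complex IV, since the Ndufa4 protein is known as a subunit of cytochrome c oxidase. Of the 81 genes, 76 were measured (a mean over both libraries of at least 1 CPM, the count scaled to a library total of 1000000) and 5 were not. In the TKO library 58 of the 76, or 76.3%, lay below their WT level, against 57.4% of all measured genes. With another scaling (TMM) 51 members did so, against 49.5% of all measured genes. The members are short transcripts, and the ratio ran with length across all genes. Among genes under 1000 bases with a mean of 20 to 200 CPM, 73.3% of 45 members and 68.9% of 241 others lay below. The part of length was not tested beyond these values. Beyond counting error, 0 of the 76 differed by 1.5-fold, where 5.6% of all measured genes were lower and 2.98% higher. The lowest ratios at a mean of 10 CPM or more belonged to the complex I subunit Ndufa11, to small subunits of cytochrome c oxidase (Cox8a, Cox7c, Cox7a2 and Cox7b) and to the ATP synthase subunit Atp5d. The 4 genes of succinate dehydrogenase had the summed ratio nearest to equality of the 5 complexes, 0.964.

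The TKO library came from C57BL/6J bone marrow-derived macrophages that were mir-106a~363-/- and mir-106b~25-/- and carried mir-17~92flox/flox together with Lyz2-Cre. In these cells mir-106a~363 and mir-106b~25 are lost throughout, and mir-17~92 only where the myeloid Lyz2 promoter has driven the Cre recombinase. The WT library came from C57BL/6J macrophages that carry Lyz2-Cre alone. Both cultures were grown for 5 days with L929 cell supernatant as a source of macrophage growth factor and received 10 ng/ml lipopolysaccharide (LPS), which activates Toll-like receptor 4, for 3 h. The age, the sex and the number of mice are not given in the sources used here, and no unstimulated culture was analysed here. With 1 library per genotype there is no replicate error and no test across samples. The mature microRNAs were not analysed here, so the deletion itself was not checked. Mir17hg, the host transcript of mir-17~92, had 16 counts in TKO and 16 counts in WT (ratio 0.993, 0.465 to 2.12), and which part of it the deletion removes is not given in the sources used here. Mcm7, whose intron holds mir-106b~25, had 496 counts in TKO and 608 counts in WT. Its ratio of 0.810 (0.718 to 0.914) was lower beyond counting error. "Higher" and "lower" describe these 2 libraries, and genotype cannot be told apart from any other difference between the 2 cultures.

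The respiratory chain passes electrons from NADH (complex I) and succinate (complex II) through ubiquinone, complex III and cytochrome c to oxygen at complex IV. Complexes I, III and IV pump protons, and the ATP synthase, complex V, uses the resulting gradient to make ATP. Macrophages activated by LPS are known to draw more on glycolysis and to use succinate oxidation for signalling. Part of complexes I, III, IV and V is encoded by the mitochondrial genome. Genes of that genome were not analysed here, so all values below concern nuclear genes.

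The libraries held 10836855 counts (TKO) and 10764519 counts (WT), and the 76 genes took 0.483% of the TKO counts and 0.520% of the WT counts. Macrophage markers bore out the labelled cell type: 10 of 10 were measured, and they summed to 88204 counts in TKO and 84975 counts in WT. B cell and erythroid markers had 0 measured members, and the 8 neutrophil markers summed to 64 counts in TKO and 72 counts in WT. T and NK cell markers summed to 74 counts in TKO and 97 in WT, and dendritic cell markers to 142 and 119. Of 7 measured fibroblast markers, 5 were lower in TKO beyond counting error, led by the collagen genes Col1a1 (550 counts in TKO and 2055 in WT) and Col1a2 (428 and 1166). Pdgfra (30 and 32) and Thy1 (39 and 33) had intervals that held equality. The 8 listed markers summed to 1205 counts in TKO and 3827 counts in WT. Their part in the results below was not tested. In bulk RNA, fewer cells of a type and less RNA per cell cannot be told apart.

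The deleted clusters hold 4 microRNA seed families, shown here because a site for them is the direct sequence link between the deletion and a messenger RNA. The mature sequences, from RefSeq (GRCm38.p6), are given 5′ to 3′ with the seed (bases 2 to 8) in capitals.
mmu-miR-17-5p: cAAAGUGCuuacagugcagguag
mmu-miR-18a-5p: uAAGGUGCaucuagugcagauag
mmu-miR-19a-3p: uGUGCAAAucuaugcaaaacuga
mmu-miR-92a-3p: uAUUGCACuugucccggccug
A perfect match to a seed was found in the longest annotated 3′ UTR (GENCODE M21) of 9 of 76 measured members, 11.8%. Over all measured genes with an annotated 3′ UTR the share was 36.0%, but the members' 3′ UTRs were short, with a median of 272 bases against 1404 bases. By family, 3 members had a miR-17 site, 4 a miR-18 site, 0 a miR-19 site and 2 a miR-92 site. The 3 miR-17 sites and 1 each of the other families are shown with the site in capitals.
Ndufa10: ccacccctGCACTTTgggtctct
Ndufb2: attacataGCACTTTttgggggg
Sdhd: tgggtgcaGCACTTTgattgtgt
Cox7b: tcaggaggGCACCTTtatagtaa
Uqcrfs1: cttgaaagGTGCAATgtctttga
Of the 9 members with a site, 6 were below equality, some with intervals that held it, such as Ndufb4, Sdhd and Ndufb2. Among all measured genes with a site 2114 of 4017 were below equality, with medians of −0.01 with a site and −0.06 without. The 9 members' median log2 ratio was −0.10, and it was −0.12 for the 67 members without a site. The longest 3′ UTRs of Ndufb2 (4012 bases), Atp5g1 (4252), Ndufa10 (1302) and Ndufb4 (487) exceed the deposited gene lengths. Those are 455, 799, 1222 and 454 bases, so these sites may lie outside the counted transcripts. A site match is a description of the sequence and does not show that the microRNA acts on the transcript.

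Promoters of respiratory genes are known for binding sites of nuclear respiratory factor 1 (NRF1), of ETS factors such as GABP, and of YY1. In RefSeq promoter windows (250 bases before to 50 bases after the start, GRCm38.p6), found for 65 of the 76 measured members, 3 motifs were searched on both strands. The NRF1 motif, of 10 bases with 1 base free, was held by 17 members, 26.2%, against 11.9% of measured genes. CCGGAAG (ETS) was held by 16 members, 24.6%, against 21.1%. AAGATGGC (YY1) was held by 11 members, 16.9%, against 5.62%. The 250 upstream bases of 3 genes are shown, 2 with the most NRF1 matches (Sdha and Ndufb4) and 1 with an ETS match across its start (Cox8a). Capitals mark the motif matches, of which that of Cox8a runs on past the start, so only 5 of its 7 bases are shown, and each gene lies on the minus strand.
Sdha, chr13:74350241-74350490: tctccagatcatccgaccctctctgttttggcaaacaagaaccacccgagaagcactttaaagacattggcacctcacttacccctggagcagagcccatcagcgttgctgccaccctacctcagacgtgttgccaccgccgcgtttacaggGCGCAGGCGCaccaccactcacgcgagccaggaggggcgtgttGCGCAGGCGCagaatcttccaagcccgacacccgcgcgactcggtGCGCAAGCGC
Ndufb4, chr16:37654369-37654618: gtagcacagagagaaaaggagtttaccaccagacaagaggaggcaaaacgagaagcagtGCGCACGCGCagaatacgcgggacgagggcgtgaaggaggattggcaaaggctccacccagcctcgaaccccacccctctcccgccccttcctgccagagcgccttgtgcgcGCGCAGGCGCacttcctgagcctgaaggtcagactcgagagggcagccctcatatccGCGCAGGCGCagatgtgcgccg
Cox8a, chr19:7217617-7217866: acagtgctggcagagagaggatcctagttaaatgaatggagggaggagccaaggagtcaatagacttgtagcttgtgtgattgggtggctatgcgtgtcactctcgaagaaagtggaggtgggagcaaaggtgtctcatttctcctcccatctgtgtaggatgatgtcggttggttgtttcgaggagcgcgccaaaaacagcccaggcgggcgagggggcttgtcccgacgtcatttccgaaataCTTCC
The 17 members with an NRF1 match had a median log2 ratio of −0.03 (11 below equality), and the 48 without had −0.15 (39 below equality). Over all measured genes with a promoter window, the medians were −0.05 with an NRF1 match (676 of 1117 below equality) and −0.04 without (4711 of 8235). For the ETS motif the members' medians were −0.11 with and −0.12 without. For the YY1 motif they were −0.06 with (6 of 11 below equality) and −0.14 without (44 of 54), against −0.05 and −0.04 over all measured genes. These splits are descriptions, and their difference was not tested. Of the factors themselves, Nrf1 had 336 counts in TKO and 347 in WT. The GABP subunits had 918 and 906 counts (Gabpa), 337 and 383 (Gabpb1) and 593 and 504 (Gabpb2). Yy1 had 857 and 706 counts.

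The comparison of TKO with WT asks how each subunit's messenger RNA differed between the 2 libraries. Of the 76 measured members 58, or 76.3%, were below equality, where 57.4% of all 11662 measured genes were. The other 18 were above equality, where 42.6% of measured genes were. The 95% interval from counting error excluded equality for 21 members on the lower side (20.2% of all measured genes) and for 1 on the higher side (14.1%). Of the members, 10 had a ratio of 0.8 or less beyond counting error (11.5% of all measured genes), and 0 passed the same fold upward (6.71%). At 1.5-fold the counts were 0 lower (5.6%) and 0 higher (2.98%). The members' count at a ratio of 0.8 or less was near the background share. The share below equality was above it, as was the count of lower genes beyond counting error. Members were also more abundant, with a median of 42.0 CPM against 23.2 CPM, and intervals are narrower at higher counts. The parts of abundance and of transcript length, described further below, in these counts were not tested. The members' median log2 ratio was −0.12, against −0.04 for all measured genes, with a range of −0.83 to 0.15. Together they had 52338 counts in TKO and 55998 counts in WT, a ratio of 0.928 (0.917 to 0.940, counting error only).

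Scaling bears on these counts. With TMM scaling 51 members were below equality, against 49.5% of all measured genes, and the members' median was −0.07, against 0.00 for all genes. The distance between the members' median and that of all genes was −0.07 under both. In the authors' deposited table the adjusted values compare these 2 libraries and not the conditions. The adjusted value was 0.05 or less for 19 lower members of 81, or 23.5% (10.8% of all genes). It was so for 0 higher ones (7.71%). These shares are over all 81 members and all 16218 genes, of which 76 and 11662 were measured. The bases are thus unlike, and the part of abundance in these shares was not tested.

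**Figure D1:**
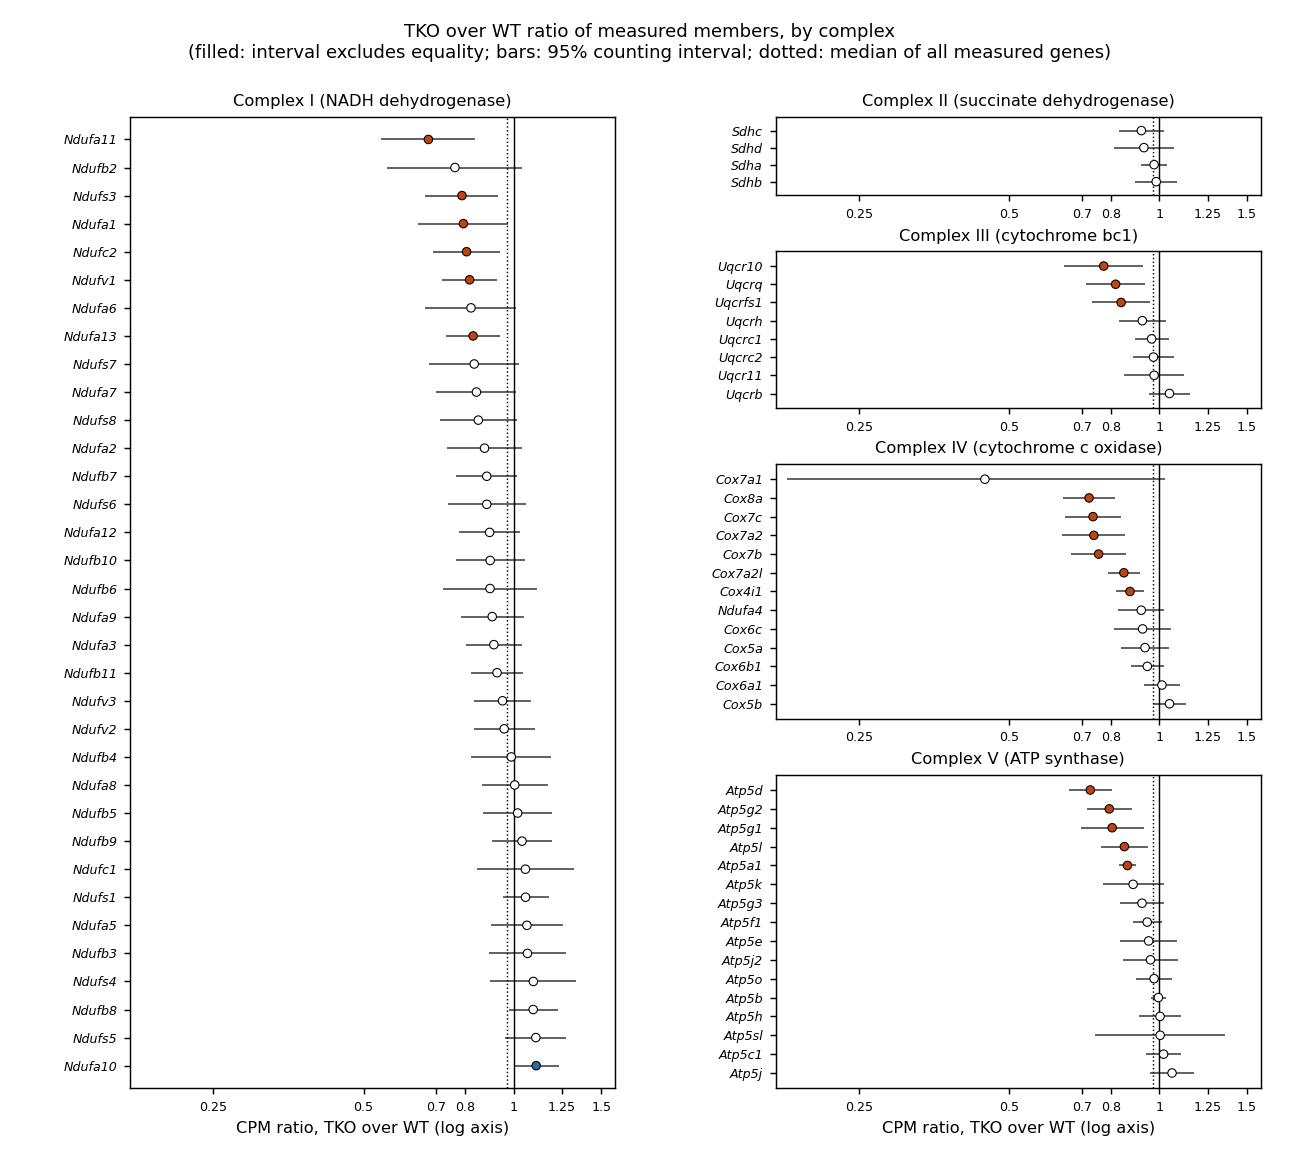
TKO over WT ratio of CPM (log axis) for measured members by complex, with the 95% counting interval as a bar; filled points have intervals that exclude equality, and the dotted line is the median of all measured genes. Most points lie left of equality, the 4 complex II points lie between 0.921 and 0.986, and Cox8a in complex IV and Atp5d in complex V lie near 0.72.

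In complex I, which oxidises NADH, 24 of 35 measured members were below equality, 7 were lower beyond counting error and 1 was higher. The median log2 ratio was −0.15. Ndufa11, an accessory subunit of the membrane arm (chromosome 17, 56717762 to 56724248), had 146 counts and 5.05 FPKM in TKO, against 215 counts and 7.48 FPKM in WT. Its ratio of 0.675 (0.543 to 0.836) was the lowest of the complex, and it was also the least abundant complex I transcript per length. Its exons overlap those of Vmac on the other strand, so its counts are uncertain.

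The conserved core subunits of complex I encoded in the nucleus carry its flavin and iron–sulfur clusters. Ndufs3 had 253 counts in TKO and 319 counts in WT, a ratio of 0.788 (0.665 to 0.932). Its exons overlap those of Kbtbd4 on the other strand, so its counts are uncertain. Ndufv1, which binds flavin and NADH, had 460 counts in TKO and 560 counts in WT (0.816, 0.720 to 0.925). Intervals held equality for the core genes Ndufs7 at 0.833, Ndufs8 at 0.849, Ndufv2 at 0.957 and Ndufs1, the largest subunit, at 1.06. Exons of Ndufs1 overlap genes on the other strand such as Eef1b2, so its counts are uncertain as well.

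Among the accessory subunits, Ndufa1 had 170 counts in TKO and 213 counts in WT (0.793, 0.644 to 0.974). Ndufc2 had 307 and 379 counts (0.805, 0.690 to 0.938), and Ndufa13, also known as the cell-death protein GRIM-19, had 455 and 545 (0.829, 0.731 to 0.941). Ndufb2, with a miR-17 site in its longest annotated 3′ UTR, had 76 and 99 counts, and its interval held equality (0.763, 0.558 to 1.04). At the other end, Ndufa10 had 772 counts in TKO and 691 in WT, and its interval only just excluded equality (1.11, 1.00 to 1.23). The longest annotated 3′ UTR of Ndufa10 also carries a miR-17 site. Ndufs5 (425 and 381 counts, 1.11), Ndufs4 (215 and 195, 1.10), Ndufb8 (649 and 589, 1.09) and Ndufb3 (265 and 247, 1.07) followed, all with intervals that held equality. The remaining accessory genes lay between 0.821 (Ndufa6) and 1.06 (Ndufa5). RefSeq lists processed copies of Ndufa12 and Ndufs5, so their counts may be shared. Exons of Ndufa13 (Tssk6) and Ndufb2 (Braf), among others, overlap genes on the other strand, and those of Ndufb8 overlap Gm20538 on the same strand. These counts are uncertain.

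Complex II, succinate dehydrogenase, links the tricarboxylic acid cycle to the chain and has no subunit encoded in mitochondria. Sdha, the flavoprotein that oxidises succinate, had 2050 counts and 65.9 FPKM in TKO, against 2085 counts and 67.5 FPKM in WT (0.977, 0.918 to 1.04). Sdhb, the iron–sulfur subunit, had 823 counts in TKO and 829 counts in WT (0.986, 0.894 to 1.09). The membrane anchors were slightly lower, Sdhc with 685 and 739 counts (0.921, 0.829 to 1.02) and Sdhd with 408 and 435 (0.932, 0.812 to 1.07). All 4 were below equality, 0 of them beyond counting error, and their summed ratio was 0.964 (0.922 to 1.01). With TMM scaling Sdha and Sdhb lay just above equality.

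In complex III, the cytochrome bc1 complex, 7 of 8 members were below equality and 3 beyond counting error. Uqcr10, a small subunit, had 215 counts in TKO and 276 counts in WT (0.774, 0.644 to 0.928). Uqcrq, another small subunit, had 386 and 469 counts (0.818, 0.713 to 0.937). The catalytic Rieske iron–sulfur protein gene Uqcrfs1, which has a miR-92 site, had 412 and 488 counts (0.839, 0.734 to 0.958). The large core proteins differed less, with 1250 and 1286 counts for Uqcrc1 (0.966, 0.892 to 1.04) and 840 and 857 counts for Uqcrc2 (0.974, 0.884 to 1.07). Uqcr11 was at 0.977 (0.850 to 1.12). The hinge protein gene Uqcrh, which has processed copies, was at 0.925 (0.831 to 1.03). Uqcrb alone was above equality, with 915 counts in TKO and 867 in WT (1.05, 0.954 to 1.15). Exons of Uqcrb and Uqcrc2 overlap genes on the other strand (Gm10767 and Pdzd9), so both counts are uncertain.

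Complex IV, cytochrome c oxidase, had the lowest median of the 5 complexes, a log2 ratio of −0.19, and the lowest summed ratio, 0.895 (0.871 to 0.919). Of its 13 measured members 11 were below equality and 6 beyond counting error. With its 4 hardly detected genes kept in, its median was −0.11 and that of complex I was lower, −0.15. Cox8a (chromosome 19, 7215158 to 7217616), a single-pass membrane subunit, had 466 counts and 83.2 FPKM in TKO, against 640 counts and 115 FPKM in WT (0.723, 0.641 to 0.816). Cox7c had 410 counts in TKO and 553 in WT (0.736, 0.647 to 0.838), with a processed copy listed in RefSeq. Cox7a2 had 326 and 438 counts (0.739, 0.639 to 0.855), and X-linked Cox7b had 436 and 573 (0.756, 0.666 to 0.858). These 4 genes encode small membrane-spanning subunits at the edge of the enzyme.

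Cox7a2l, taken here as a supercomplex assembly factor and not a subunit, was counted with complex IV. It had 1321 counts in TKO and 1545 counts in WT (0.849, 0.789 to 0.915), and its protein was not examined. Cox4i1, the largest nuclear-encoded subunit, had 1679 and 1909 counts (0.874, 0.818 to 0.933). Exons of Cox4i1 overlap those of Emc8 on the other strand, which makes its counts uncertain. A further 4 subunits had intervals that held equality: Ndufa4 at 0.920, Cox6c at 0.926, Cox5a at 0.936 and Cox6b1 at 0.947. Cox6a1 had 1152 counts in TKO and 1130 in WT (1.01, 0.932 to 1.10). Cox5b, the zinc-binding subunit on the matrix side, had 1367 and 1295 counts (1.05, 0.971 to 1.13) and has a processed copy.

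Complex V, the ATP synthase, had 12 of 16 measured members below equality and 5 beyond counting error, with a median log2 ratio of −0.07. In the catalytic F1 head, Atp5b, the catalytic beta subunit, had 6136 counts in TKO and 6119 counts in WT, a ratio of 0.996 (0.961 to 1.03). Its alpha partner Atp5a1 had 4314 and 4963 counts (0.863, 0.829 to 0.900). The delta subunit gene Atp5d (chromosome 10, 80138698 to 80145828) had 686 counts and 69.6 FPKM in TKO, against 937 counts and 95.7 FPKM in WT (0.727, 0.658 to 0.803). Atp5e, the epsilon subunit, was at 0.952 and the gamma subunit Atp5c1 at 1.02, both with intervals that held equality. Alpha and beta subunits stand in equal number in the head, yet their transcripts' intervals did not overlap here. Exons of Atp5a1 and Atp5d overlap genes on the other strand (Haus1 and Cbarp), which makes both counts uncertain. RefSeq lists a processed copy of Atp5c1, so its counts may be shared.

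The proton-carrying c ring is built from 1 protein that 3 genes encode. Atp5g2 had 645 counts in TKO and 807 counts in WT (0.794, 0.715 to 0.882), and Atp5g1 had 341 and 421 (0.805, 0.695 to 0.930). Atp5g3 had 715 and 769 counts, and its interval held equality (0.924, 0.833 to 1.02). Of the other membrane and stalk subunits, Atp5l had 629 and 734 counts (0.851, 0.764 to 0.948), with processed copies and an exon overlap on the other strand (Gm30934). Atp5k, Atp5f1, Atp5j2, Atp5o and Atp5h lay between 0.886 and 1.00, and Atp5j was highest at 785 counts in TKO and 735 in WT (1.06, 0.958 to 1.17). Exons of Atp5j (Gabpa), Atp5f1 and Atp5o also overlap genes on the other strand, and Atp5k and Atp5f1 have processed copies. The counts of these genes are uncertain too. The other symbols in the group are no subunits: Atp5sl, a complex I assembly factor, had 92 and 91 counts, and Atp5s, with 8 and 11, was not measured.

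Levels per length (FPKM, as the authors deposited it) had the same highest and lowest gene of each complex in both libraries. The median over measured members was 59.0 FPKM in TKO and 62.4 FPKM in WT. Complex I transcripts were lowest, with a median of 40.6 FPKM in TKO and 44.6 FPKM in WT, and ran up to Ndufa3 (135 FPKM in TKO and 148 FPKM in WT). Complex II had medians of 60.2 and 63.3 FPKM, and complex III 58.8 and 67.0 FPKM, led by Uqcrb with 178 and 169.8 FPKM. Complex IV had medians of 90.2 and 122 FPKM, both the values of Cox7c, and was led by Cox6b1 with 263 and 277 FPKM. Complex V had medians of 101 and 110.4 FPKM, led by Atp5b with 302 and 303 FPKM. Subunits that stand in equal number in an enzyme differed in transcript level, as between Sdhd (29.6 FPKM in TKO and 31.8 FPKM in WT) and Sdhb (70.9 and 71.8 FPKM).

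**Figure D2:**
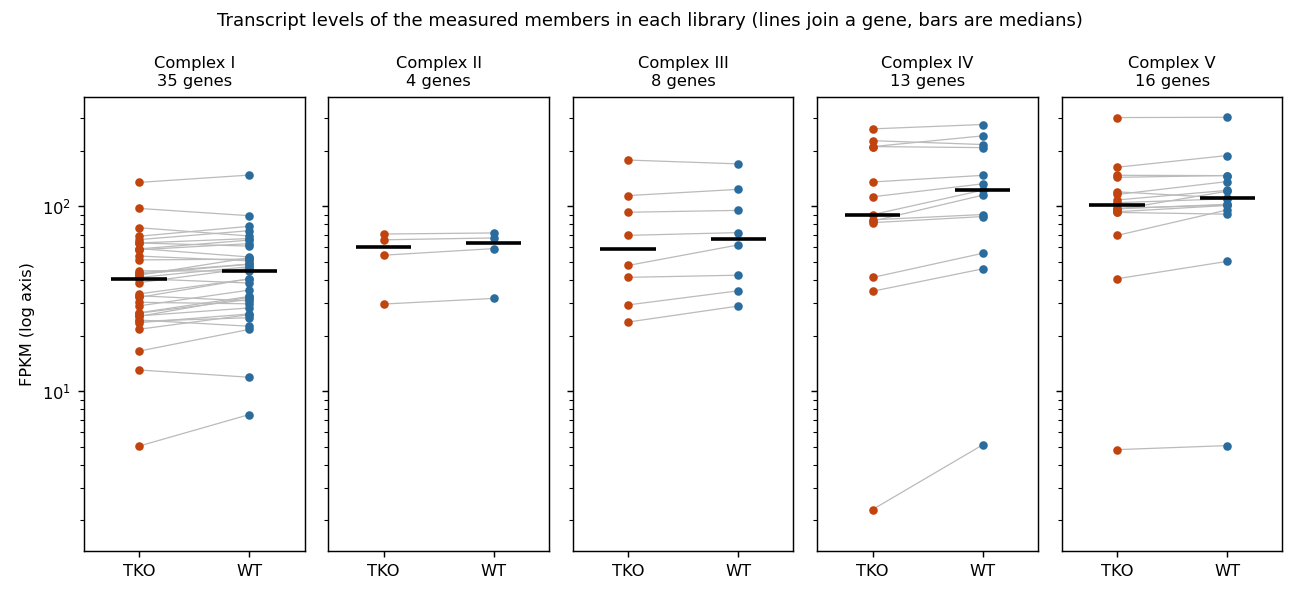
FPKM (log axis) of each measured member in the TKO library (left) and the WT library (right) by complex; lines join a gene and black bars are medians. Complex IV shows the widest step between medians, 90.2 FPKM in TKO and 122 FPKM in WT. Both are the values of Cox7c, so the step is that gene's, and the complex's summed FPKM was 1577 and 1744. Cox7a1 is the low point of that panel.

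Several subunits have paralogues that other tissues use, and these were near or under the floor of 3 counts in both libraries. Cox4i2, a lung and hypoxia form of subunit 4, had 1 count in TKO and 0 in WT. Cox6a2, the heart and muscle form of subunit 6A, had 4 and 1 counts, and its exons overlap those of the integrin gene Itgad on the other strand. Cox6b2, a testis form, had 5 and 3 counts, and Ndufa4l2, which hypoxia induces, had 2 and 1. With so few counts no difference was detectable. Cox7a1, the muscle form of subunit 7A, was the exception that passed the filter, with 9 counts in TKO and 20 in WT, and its interval held equality (0.447, 0.179 to 1.03). Of 7 measured fibroblast markers 5 were lower in TKO as well, mostly collagen genes by count, and their part in the Cox7a1 counts was not tested. The common forms Cox4i1, Cox6a1, Cox6b1, Cox7a2 and Ndufa4 had 326 counts or more in each library.

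**Figure D3:**
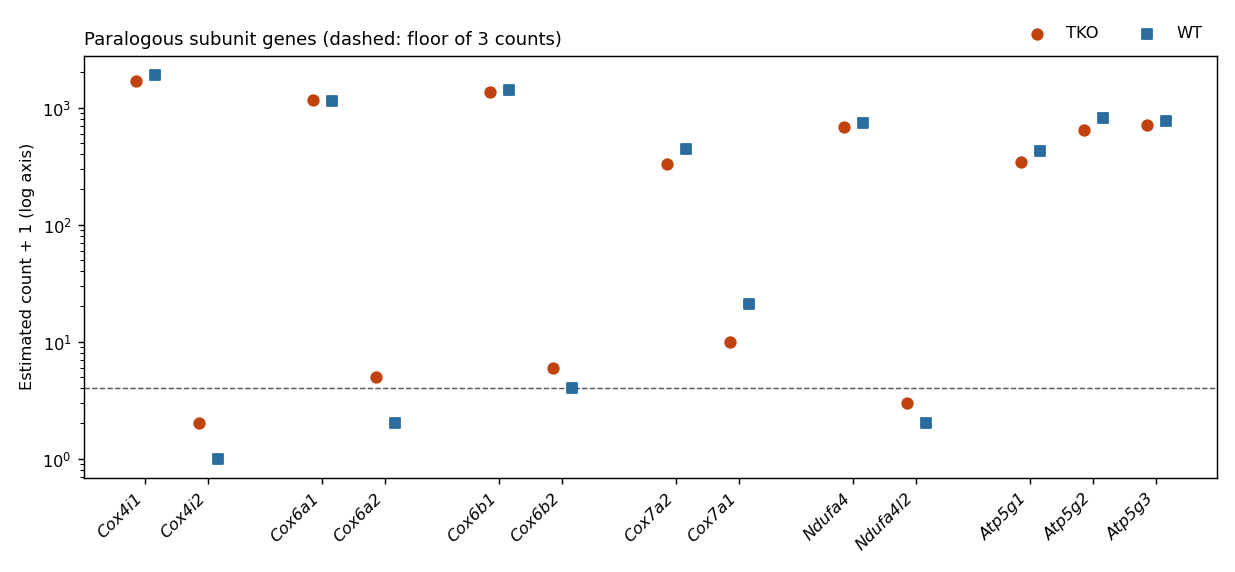
Estimated count plus 1 (log axis) of paralogous subunit genes, TKO as circles and WT as squares; the dashed line marks the floor of 3 counts. The common forms lie at 326 counts or more, the tissue forms at 20 or fewer, and the 3 genes for the c ring lie between 341 and 807 counts.

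The members are short transcripts, and the log2 ratio ran with length across the whole table. Their median deposited length was 700 bases, against 2864 bases for all measured genes. Among other genes the median log2 ratio was −0.15 under 500 bases, −0.13 from 500 bases, −0.11 from 750 bases, −0.09 from 1000 bases, −0.02 from 3000 bases and 0.01 from 5000 bases. The members' medians in the same classes were −0.12 under 500 bases (12 genes), −0.11 from 500 bases (29 genes) and −0.23 from 750 bases (11 genes). Among genes under 1000 bases with a mean of 20 to 200 CPM, the 45 members had a median of −0.11, and 73.3% were below equality. The 241 other genes of that size and abundance had a median of −0.09, and 68.9% were below equality. So the members lay close to other short transcripts of like abundance, and the part of length in the result was not tested beyond these values. Among other genes the median also went up with abundance, at −0.10 from 1 to 10 CPM and 0.00 from 100 to 200 CPM, where the 11 members had −0.05.

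**Figure D4:**
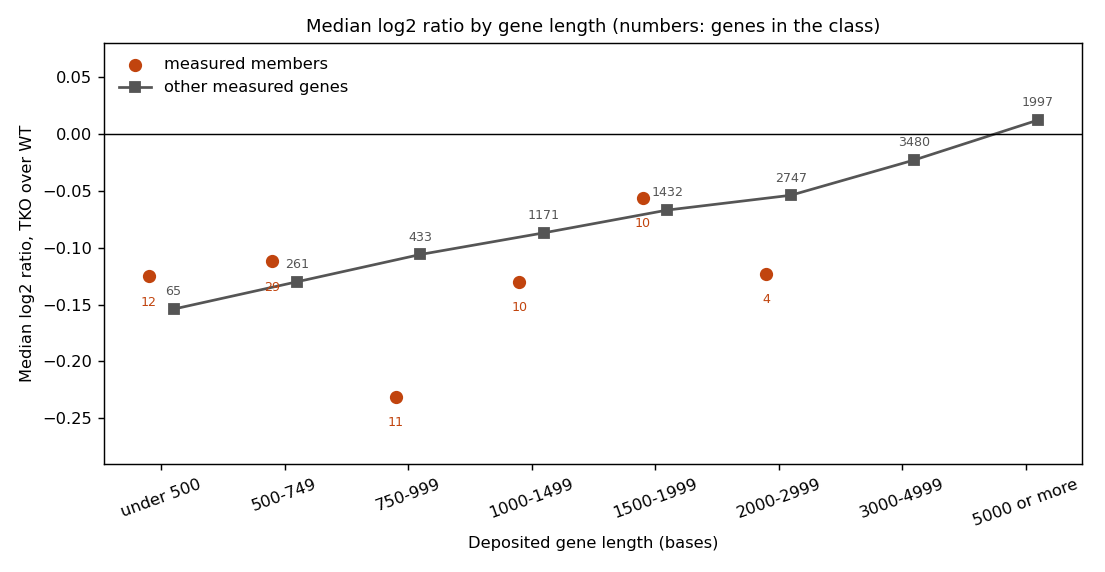
Median log2 ratio (TKO over WT) in classes of deposited gene length (bases), with members as circles and other measured genes as squares; numbers give the genes in each class. The other genes run from −0.15 in the shortest class to 0.01 in the longest, and the members lie at −0.06 to −0.23.

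Other genes of the pathway were described from lists chosen by function, read against the same background shares. Subunits and associated proteins that the symbol rule leaves out had a median log2 ratio of −0.10 over 7 measured genes. Of the subunits, cytochrome c1 (Cyc1, 358 counts in TKO and 355 in WT) was at 1.00, Ndufab1 at 1.03, Usmg5 at 0.955 and 2010107E04Rik at 0.933. All these intervals held equality. Atpif1, Higd1a and Higd2a encode associated proteins and had the lowest ratios of the list. The ATP synthase inhibitor Atpif1 (1196 and 1308) was at 0.908 (0.839 to 0.983) and Higd2a at 0.887 (0.726 to 1.08). Higd1a, a hypoxia-inducible partner of complex IV, had 137 and 185 counts (0.736, 0.585 to 0.922). Cytochrome c itself (Cycs) had 1606 counts in TKO and 1504 counts in WT (1.06, 0.988 to 1.14).

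Assembly factors of complex I had the lowest median of the pathway lists with 5 or more measured genes, −0.24 over 15 genes, of which 12 were below equality and 2 lower beyond counting error. Those 2 were of low abundance, Ndufaf6 with 6 counts in TKO and 23 in WT (0.259, 0.0863 to 0.655) and Ndufaf4 with 63 and 102 (0.614, 0.441 to 0.848). Both are under 10 CPM, outside the naming rule, and were picked with their values known. The complex I factors with a mean of 10 CPM or more had intervals that held equality, with ratios of 0.843 for Ndufaf7, 0.881 for Acad9 and 0.906 for Foxred1. For complex II the 4 factors were all below equality, with Sdhaf4 at 30 and 59 counts (0.505, 0.314 to 0.797), Sdhaf3 at 14 and 21, Sdhaf1 at 38 and 47 and Sdhaf2 at 369 and 375. Complex III factors had a median of −0.07 over 5 genes: Bcs1l was at 0.867, Uqcc1 at 0.930, Uqcc3 had 65 counts in TKO and 68 in WT, Uqcc2 was at 0.993 and Ttc19 was at 1.05.

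Complex IV assembly factors had a median of −0.08 over 22 genes (−0.04 at 10 CPM or more), 14 below equality, 3 lower and 1 higher beyond counting error. Coa3, which acts early in assembly of the mitochondrially encoded Cox1 subunit, had 133 counts in TKO and 224 counts in WT (0.590, 0.472 to 0.734). Cox10, which makes haem A precursor, had 169 and 215 counts (0.781, 0.634 to 0.960). Coa5 was higher, with 1895 and 1687 counts (1.12, 1.04 to 1.19). Cox17 (0.886), Sco1 (1.03) and Pet100 (1.07) had intervals that held equality. The 3 complex V factors were Atpaf1 (54 and 65 counts), Tmem70 (169 and 178) and Atpaf2 (141 and 135), with 0 beyond counting error.

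Electron carriers and ubiquinone synthesis genes had a median of −0.13 over 18 genes, 15 of them below equality, with 0 lower and 2 higher beyond counting error. At a mean of 10 CPM or more their median was −0.04. The counts of all 18 genes summed to a ratio of 1.02 (0.983 to 1.06). The genes above equality were Coq10b, a ubiquinone-binding protein, with 316 counts in TKO and 231 in WT (1.36, 1.14 to 1.62), the glycerol phosphate dehydrogenase Gpd2 (1672 and 1478, 1.12) and Cycs. The lowest at 10 CPM or more were Etfdh (0.901), Sqrdl (0.922) and Etfb (0.936), each with an interval that held equality. Tricarboxylic acid cycle genes had a median of −0.08 over 22 genes. Mdh1, the cytosolic malate dehydrogenase, had 1228 and 1461 counts (0.835, 0.773 to 0.901), followed by Idh3a at 0.850 (0.729 to 0.991) and Suclg1 at 0.859 (0.758 to 0.972). Acod1, which makes itaconate, an inhibitor of succinate dehydrogenase, had 69631 counts in TKO and 58624 counts in WT (1.18, 1.17 to 1.19). The lipoamide dehydrogenase Dld was also higher (1458 and 1248, ratio 1.16, beyond counting error), and Acly, the ATP citrate lyase, was at 1.06 (0.989 to 1.13).

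Regulators of mitochondrial biogenesis had a median of −0.11 over 17 genes (−0.06 at 10 CPM or more), 13 below equality, with Gabpb2 (593 and 504 counts, 1.17, 1.04 to 1.32) and Yy1 (1.21, 1.09 to 1.33) higher beyond counting error. The lowest at 10 CPM or more were Polrmt (0.834), Mterf3 (0.874) and Gabpb1 (0.874), with intervals that held equality. Ppargc1a, the coactivator PGC-1α, had 1 and 3 counts and was not measured. Transporters of ATP, phosphate and metabolites had a median of −0.05 over 10 genes. The aspartate–glutamate carrier Slc25a13 had 200 and 285 counts (0.697, 0.579 to 0.838), and the adenine nucleotide carriers Slc25a4 (965 and 1093, 0.877) and Slc25a5 (1868 and 2076, 0.894) and the uncoupling protein Ucp2 (4901 and 5497, 0.886) were lower beyond counting error. Vdac2, an outer-membrane channel, was higher (2530 and 2329, 1.08, 1.02 to 1.14). Slc25a1 was at 1.11 and Slc25a11 at 1.03, with intervals that held equality.

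**Figure D5:**
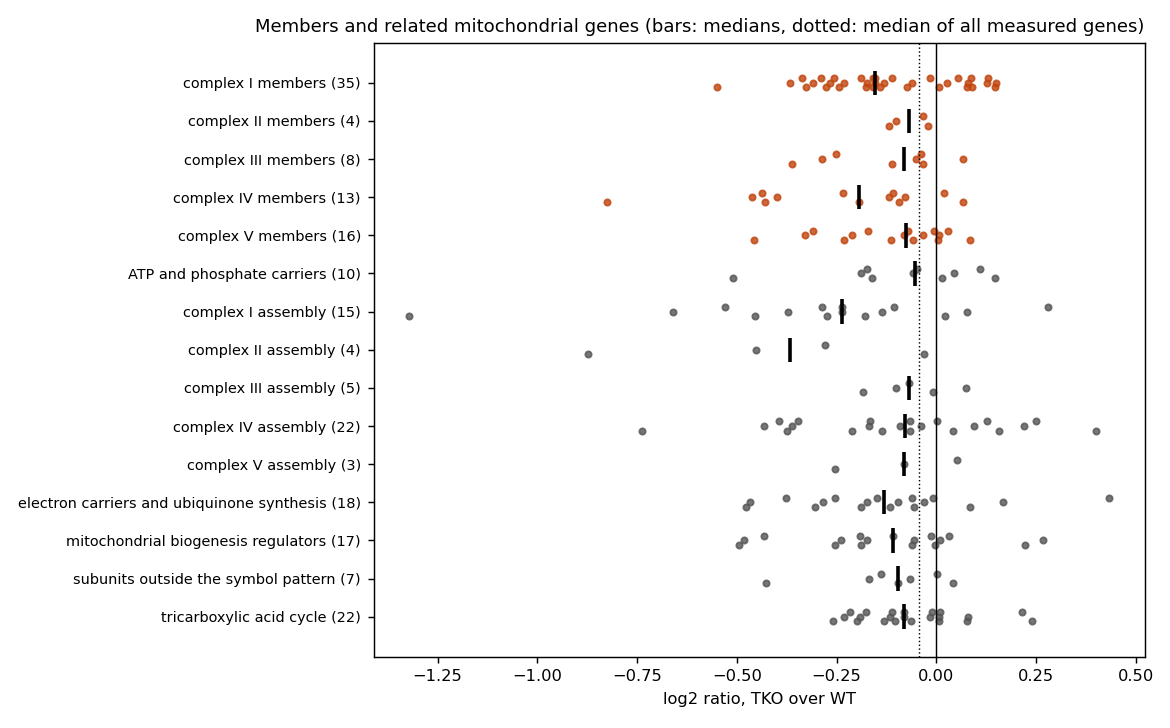
log2 ratio (TKO over WT) of each measured gene for the 5 complexes and for the related lists, with medians as bars, 0 as a solid line and the median of all measured genes as a dotted line. Group medians run from −0.37 (complex II assembly, 4 genes) to −0.05 (carriers), and single genes spread on both sides of 0 in most groups.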

How the data were processed

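Polyadenylated RNA of 1 TKO and 1 WT macrophage culture was sequenced. Per the submitters' processing notes, HISAT2 2.0.4, Bowtie2 2.2.5, RSEM 1.2.12 and mm10 were used; their roles, the annotation and the strand setting are not stated there. The table holds estimated counts and FPKM values (0.01 stands for 0), both deposited by the authors. The deposited log2 ratio is that of the FPKM, TKO over WT, and was not used for the values here. The deposited p-value was not used, and the adjusted value, which passes 1 (up to 1.04) and is treated as a score, was used for 1 count. Symbols turned into dates (23) were restored from RefSeq identifiers, and 1 entry without a symbol (1 count per library, 9.23e-06% of TKO and 9.29e-06% of WT) was left out.

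Estimated counts were rounded to whole numbers, which changed 3 members, and scaled to CPM. For log2 ratios 0.5 CPM was added to both libraries before TKO was divided by WT, so changes of low genes are understated. Ratios are TKO CPM over WT CPM, with exact Clopper-Pearson conditional binomial 95% intervals. Both intervals and floors reflect counting error alone, because each genotype has 1 library. Reads that lack molecular identifiers may be copies of the same molecule, so even counting error may be understated. With 1 library each, no test and no p-value was computed; the interval script was tested on simulated data. RefSeq names processed copies of 9 members, and exons of 26 overlap a gene on the other strand (33 in all), so these counts are uncertain.

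Alternatives were TMM (edgeR 4.0.16) and DESeq2 1.42.0 size factors, other totals, FPKM, filters and pseudocounts. Members and lists were chosen with earlier results of these data known. Named members (50 by rule) were all genes of complexes II and III and, for the others, the 3 highest and the lowest levels, the 5 lowest and 5 highest ratios at 10 CPM or more, isoform families and genes with a called ratio of 0.8 or less; further members are named to account for the rest, and 1 member, counted in the totals, is not reported here by itself. In the lists, up to 3 genes at each end at 10 CPM or more were named, and every gene of lists with 5 or fewer; genes named beyond this, such as Nrf1, Ppargc1a and Slc25a5, were picked with their values known. Python 3.11.15, scipy 1.17.1 and R 4.3.3 were used.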

Additional observations from a re-analysis of the deposited data

How the results depend on the processing

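Over 10 alternatives, the members' median log2 ratio stayed below 0 (−0.12 to −0.07), as did the median of each complex. The medians of the related lists with 5 or more measured genes also did, over the 7 or 8 alternatives run for each. The members' median was −0.07 (−0.068) with TMM scaling, beyond the order-statistic interval over members. TMM scaling gave a median of −0.02 for complex II, a summed ratio of 0.960 and 3 members higher beyond counting error; DESeq2 size factors gave 0.951 and 2. The median of all measured genes changed sign, to 0.00 (0.003) with TMM scaling. It was −0.01 (−0.009) with DESeq2 size factors, −0.03 (−0.034) with no filter and −0.03 (−0.029) at 10 CPM or more. These changes follow from the construction of each scaling or filter. Leaving out members with a processed copy or antisense overlap, an alternative chosen after seeing the data, left 34 below and 11 above equality, 12 lower beyond counting error and 6 with a called ratio of 0.8 or less, of 45; the median was then −0.07 for complex I, −0.25 for complex III and −0.32 for complex IV. TMM and DESeq2 scaling both left 7 members with a called ratio of 0.8 or less. All 400 values of single named members stayed within their counting interval, but some near equality changed side. With TMM scaling the log2 ratios of Sdha, Sdhb, Uqcr11, Uqcrc2 and Atp5b lay above 0, from 0.009 to 0.042. The interval of Ndufa1 then held equality. No paired analysis was possible because each genotype has 1 library. For the paralogues Cox4i2, Cox6a2, Cox6b2 and Ndufa4l2, with 5 counts or fewer in each library, no difference was detectable.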
